A study of Mus musculus with 25 samples.

Results

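*Fgfbp3*, *Aass* and *Runx1t1* are 3 of the 48440 genes in a count table of mouse embryonic stem (ES) cells, and they were singled out because their transcript levels changed most steeply when the Wnt pathway was switched on by a drug. Among genes averaging 20 CPM or more, *Fgfbp3* had the steepest rise with the dose, and *Aass* and *Runx1t1* were among the 3 steepest falls. All 25 libraries came from E14 cells, a mouse ES line that is kept in serum without feeder cells. Unedited E14 cells were treated for 48 h with 0, 2.5, 5, 7.5 or 10 µM CHIR99021 (2 libraries per dose). The other 15 libraries came from 15 edited E14 clones that were not given the drug (0 µM), each heterozygous for 1 of 11 missense mutations of *Ctnnb1*, the gene of β-catenin. The mutations were S37A, S37C, S37F, S37Y, T41A, T41I, T41N, T41S, S45C, S45F and S45P. S37F, T41A, T41I and S45F were represented by 2 clones and each other mutation by 1 clone, with 1 library per clone. The edited allele had first carried a selection cassette, which was then exchanged for the mutant sequence. No unedited clone made in this way was among the libraries.

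β-Catenin is the transcriptional co-activator of canonical Wnt signaling. In resting cells, CK1α and GSK3β phosphorylate a short stretch at its amino terminus, which marks the protein for β-TRCP-dependent degradation. CHIR99021 inhibits GSK3, and most substitutions at codons 37, 41 and 45 remove a phosphorylation site, although T41S keeps a residue that can be phosphorylated. Without this phosphorylation β-catenin can accumulate and act with TCF/LEF factors on target genes. *Fgfbp3* encodes a secreted protein that binds fibroblast growth factors (FGFs), *Aass* encodes the mitochondrial enzyme that opens the saccharopine route of lysine breakdown, and *Runx1t1* encodes ETO (MTG8), a nuclear co-repressor of the ETO family.

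The mutated codons lie in exon 3 of *Ctnnb1*. The reference coding sequence of codons 32 to 45 is printed because every clone differs from it at 1 of 3 codons. In GRCm38 it spans chr9:120950602-120950643 on the plus strand, and the capitals mark codons 37, 41 and 45.

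*Ctnnb1* codons 32 to 45: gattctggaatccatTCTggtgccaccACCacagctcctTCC

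*Fgfbp3* (ENSMUSG00000047632.10) lies at chr19:36917550-36919615 on the minus strand of GRCm38 and spans 2066 bp. *Aass* (ENSMUSG00000029695.13) lies at chr6:23072173-23132986 on the minus strand and spans 60814 bp, and *Runx1t1* (ENSMUSG00000006586.15) lies at chr4:13743436-13893649 on the plus strand and spans 150214 bp. All 3 genes are protein coding and overlap 0 other genes of GENCODE M21. The 250 bases upstream of the RefSeq start (GRCm38.p6) were available for 2 of the 3 genes and are printed because TCF/LEF factors bind DNA. The TCF/LEF core letters CTTTGA and CTTTGT were searched on both strands and are in capitals. The *Fgfbp3* sequence (chr19:36919600-36919849, minus strand) held 0 matches, and the *Aass* sequence (chr6:23132987-23133236, minus strand) held 1 match to CTTTGA, read as TCAAAG from 76 to 71 bases before the start.

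*Fgfbp3* upstream sequence: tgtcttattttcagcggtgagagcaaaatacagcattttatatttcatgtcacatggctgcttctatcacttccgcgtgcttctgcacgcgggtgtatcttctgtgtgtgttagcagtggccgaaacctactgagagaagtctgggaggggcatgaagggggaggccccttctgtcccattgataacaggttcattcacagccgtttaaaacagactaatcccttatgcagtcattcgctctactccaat

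*Aass* upstream sequence: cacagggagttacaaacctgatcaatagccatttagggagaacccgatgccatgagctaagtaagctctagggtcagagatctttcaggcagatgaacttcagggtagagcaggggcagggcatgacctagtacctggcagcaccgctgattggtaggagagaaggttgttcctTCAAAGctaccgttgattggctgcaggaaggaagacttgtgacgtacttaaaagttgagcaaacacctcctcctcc

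Among 32851 such windows, 13.8% held CTTTGA and 16.5% held CTTTGT on either strand, so a match of this kind is common. The match is a description of letters and not a binding site.

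RNA was measured by mcSCRB-seq, which counts molecules from the 3′ ends of transcripts by unique molecular identifiers (UMIs). Levels are given as CPM, the count of a gene scaled by the total count of its library. Totals ran from 306157 to 2083398 counts in the dose libraries and from 495616 to 2025273 in the clones, and the limit of 3 counts that a count of 0 allows was 1.44 to 9.80 CPM. Transcripts of the ES cell genes *Sox2*, *Nanog*, *Zfp42* and *Esrrb* were present in every library, with lowest levels of 120.9 to 309.6 CPM, whereas *Pou5f1* was at 9.05 to 28.8 CPM. A set of 4 dose libraries had a lower share of mitochondrial counts (0.485% to 0.562%) and fewer total counts (306157 to 940544) than the other 6 (0.986% to 1.46%, and 1311779 to 2083398). These 4 were 0 µM replicate 2 and replicate 1 at 2.5, 5 and 10 µM. In the clones the mitochondrial share was 1.53% to 2.52%.

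*Fgfbp3* rose from a level close to the detection floor in untreated cells to 1 of moderate abundance at 10 µM. The 2 libraries at each dose held 3.80 and 5.32 CPM at 0 µM, 7.19 and 2.29 CPM at 2.5 µM, 18.1 and 13 CPM at 5 µM, 45.7 and 36.9 CPM at 7.5 µM, and 68.6 and 68.5 CPM at 10 µM. Replicates at 0 and 2.5 µM overlapped, and from 5 µM upward every library lay above every library of the dose below. The mean (± SD, n = 2) was 4.56 ± 1.07 CPM in untreated cells and 68.6 ± 0.0410 CPM at 10 µM, a ratio of 15. The level at 0 µM rested on 7 and 5 counts and the level at 10 µM on 21 and 91 counts. The small SD at 10 µM understates the error, since the Wilson 95% intervals of these libraries were much wider, as the plot of levels by dose shows.

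*Aass* fell up to 5 µM and then stayed level. Its libraries held 85.3 and 58.5 CPM at 0 µM, 28.7 and 32.8 CPM at 2.5 µM, 14.8 and 13.4 CPM at 5 µM, 16.0 and 9.80 CPM at 7.5 µM, and 13.1 and 13.6 CPM at 10 µM. Both untreated libraries lay above all treated ones, both libraries at 2.5 µM lay above all at higher doses, and the libraries at 5, 7.5 and 10 µM overlapped. Its mean (± SD, n = 2) fell from 71.9 ± 19 CPM in untreated cells to 13.3 ± 0.347 CPM at 10 µM, a ratio of 5.40.

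*Runx1t1* fell at every dose step. Its libraries held 70.7 and 47.8 CPM at 0 µM, 30.2 and 29.0 CPM at 2.5 µM, 18.1 and 20.6 CPM at 5 µM, 13.1 and 11.5 CPM at 7.5 µM, and 3.27 and 6.78 CPM at 10 µM. By CPM value, the libraries overlapped at no pair of neighboring doses. Its mean (± SD, n = 2) fell from 59.3 ± 16.1 CPM in untreated cells to 5.02 ± 2.48 CPM at 10 µM, a ratio of 11.8. The level at 10 µM rested on 1 and 9 counts, and the library with 1 count was below its floor. The Wilson intervals at 10 µM were 0.577 to 18.5 and 3.57 to 12.9 CPM. They overlapped those at 7.5 µM (8.26 to 20.6 and 7.46 to 17.8 CPM). The order of the single libraries at these doses is therefore not resolved.

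**Figure D1:**
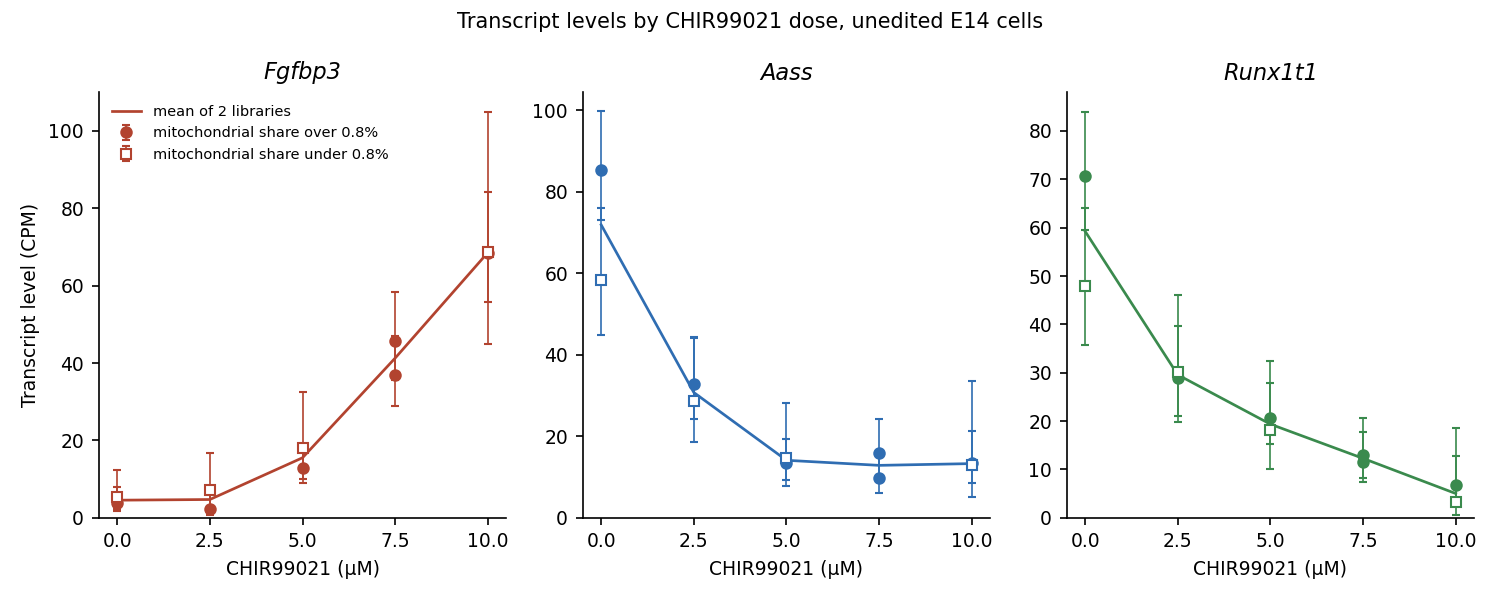
Transcript level in CPM (y axis) against CHIR99021 dose in µM (x axis) for the 3 genes in 10 libraries of unedited cells; each point is 1 library with its Wilson 95% interval, open squares are the 4 libraries with a mitochondrial share under 0.8%, and lines join the means of 2 libraries. *Fgfbp3* was near 4.6 CPM up to 2.5 µM and reached 68.6 CPM, *Aass* was level from 5 µM, and *Runx1t1* fell at each step.

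These libraries chose the genes, so their slopes and the separation of their doses are descriptions and carry no test. The share of all genes with doses separated in this way was not counted. Along a line fitted on the dose with edgeR, *Fgfbp3* rose by 4.50 ± 0.34 (log2 change from 0 to 10 µM ± SE), which is 22.7-fold. *Aass* changed by −3.17 ± 0.32 (8.98-fold lower) and *Runx1t1* by −3.16 ± 0.27 (8.93-fold lower). The line gave a larger fold than the observed means for *Fgfbp3* and *Aass* (22.7 against 15 and 8.98 against 5.40) and a smaller one for *Runx1t1* (8.93 against 11.8). Across all genes, 1256 of 10033 (12.5%) had an adjusted p under 0.05 for the dose slope, with 591 (5.89%) rising and 665 (6.63%) falling.

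The choice was made among called genes whose mean was 20 CPM or more and whose libraries at 0 and 10 µM did not overlap, 447 rising and 536 falling. *Fgfbp3* stood first among the rising genes. The next were *Msx1*, a homeobox gene (3.57 ± 0.41), and *Nkd1*, which encodes a feedback inhibitor of Wnt signaling (3.10 ± 0.26). Among the falling genes *Lefty1*, a Nodal antagonist, was steeper (−3.29 ± 0.20), and *Aass* and *Runx1t1* took the second and the third place. *Pou3f1*, a POU-domain transcription factor gene (−2.69 ± 0.33), and *Ppp1r1a*, which encodes an inhibitor of protein phosphatase 1 (−2.60 ± 0.31), came next.

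The 3 genes reached their 10 µM change along different paths. With the doses fitted as separate groups, *Fgfbp3* differed from 0 µM by −0.10 ± 0.66 at 2.5 µM, 1.72 ± 0.46 at 5 µM, 3.21 ± 0.36 at 7.5 µM and 3.96 ± 0.36 at 10 µM (log2 ± SE). It had thus covered −2.46%, 43.4% and 81.0% of its 10 µM change at 2.5, 5 and 7.5 µM. For *Aass* the differences were −1.24 ± 0.24, −2.41 ± 0.26, −2.57 ± 0.25 and −2.46 ± 0.30, and the shares 50.4%, 97.8% and 104%. *Runx1t1* differed by −1.05 ± 0.25, −1.60 ± 0.25, −2.33 ± 0.27 and −3.31 ± 0.38, and the shares were 31.8%, 48.2% and 70.4%. By linear interpolation, 50% of the log2 change was reached at 5.44 µM for *Fgfbp3*, 2.48 µM for *Aass* and 5.20 µM for *Runx1t1*.

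The steps between neighboring doses show the same paths. *Fgfbp3* moved by −0.10 ± 0.66 from 0 to 2.5 µM, then by 1.82 ± 0.52, 1.49 ± 0.29 and 0.75 ± 0.23 (log2 ± SE). *Aass* moved by −1.24 ± 0.24 and −1.17 ± 0.32 over the first 2 steps and by −0.16 ± 0.36 and 0.11 ± 0.41 over the last 2, which were smaller than their errors. The 4 steps of *Runx1t1* were −1.05 ± 0.25, −0.55 ± 0.31, −0.73 ± 0.33 and −0.98 ± 0.50.

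For most other genes with a large change, more of it had been covered at low doses than for *Fgfbp3*. Among 142 other rising genes the median share of the 10 µM change was 55.2% at 2.5 µM, 85.5% at 5 µM and 91.9% at 7.5 µM. The share of *Fgfbp3* exceeded that of 5 of these genes at 2.5 µM, 7 at 5 µM and 32 at 7.5 µM. Among 124 other falling genes the medians were 45.9%, 69.7% and 80.5%. At 5 µM *Aass* exceeded 109 of them and *Runx1t1* exceeded 21, so the 2 genes with nearly equal slopes lay on opposite sides of the median. These positions are descriptions of the same libraries that chose the genes.

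**Figure D2:**
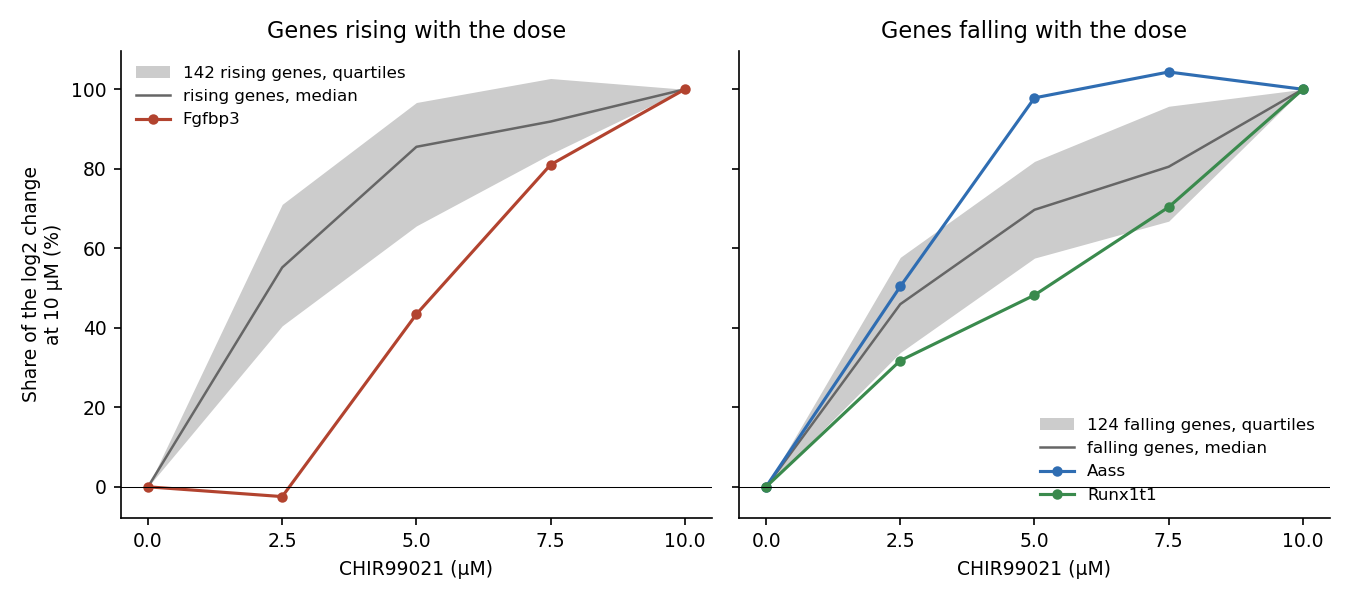
Share of the log2 change at 10 µM (y axis, %) that had been reached at each CHIR99021 dose (x axis, µM), with gray bands for the quartiles and gray lines for the median of 142 other rising (left) and 124 other falling genes (right). *Fgfbp3* ran below the band at 2.5, 5 and 7.5 µM (−2.46%, 43.4% and 81.0%). *Aass* ran above it at 5 and 7.5 µM (97.8% and 104%), and *Runx1t1* below it at 2.5 and 5 µM (31.8% and 48.2%).

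The 4 libraries with a low mitochondrial share are spread over 4 doses. Among the other 6 libraries the fitted change was 4.81 ± 0.43 for *Fgfbp3*, −3.35 ± 0.38 for *Aass* and −3.31 ± 0.30 for *Runx1t1*, close to the values over all 10. The change of *Aass* did depend on the untreated libraries, and without 0 µM the line gave −1.91 ± 0.51. Of other cell types, 7 neural marker genes summed to 72.3 and 74.4 CPM at 0 µM and to 29.4 and 21.8 CPM at 10 µM, with *Neurog2* at 0 counts in 24 of the 25 libraries. The 6 mesendoderm genes summed to 16.9 and 20.2 CPM at 0 µM and to 131.8 and 156.8 CPM at 10 µM, mostly *T*, with *Mesp1* at 0 counts in 20 libraries. The 5 ES cell markers summed to 1473 and 1422 CPM at 0 µM and to 1258 and 1053 CPM at 10 µM. Of these, 3 fell by the edgeR test and 0 rose. They were *Sox2* (−0.49 ± 0.12, adjusted p = 0.00495), *Nanog* (−0.56 ± 0.15, adjusted p = 0.00879) and *Zfp42* (−0.46 ± 0.13, adjusted p = 0.0155). In bulk RNA, fewer cells of a type and less RNA per cell cannot be told apart. The part of these marker changes in the values of the 3 genes was not tested.

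In the clones *Fgfbp3* stayed near the detection floor. The lowest of the 15 clones held 0 CPM (T41N clone D3), the median was 1.51 CPM and the highest was 5.87 CPM (S37F clone H2, 11 counts). Fewer than 3 counts were held by 11 of the 15 clones. By CPM value, 14 of the 15 clones lay below both untreated libraries and 1 above both, and all 15 lay below both libraries at 10 µM. The floors of the S45C, S45P and T41N clones (4.53, 3.99 and 6.05 CPM) exceeded the lower untreated library (3.80 CPM). These clones therefore cannot be placed below it, and the share of genes this low with such a position was not counted. Of 7051 genes whose mean at 10 µM was 20 CPM or more, 775 (11%) had all 15 clones below both libraries at that dose. Summed over libraries, *Fgfbp3* had 2.09 CPM in the clones (Wilson 95% interval 1.54 to 2.84), 4.32 CPM in untreated cells (2.47 to 7.54) and 68.5 CPM at 10 µM (57.0 to 82.5). The level at 10 µM was 35.4 times the mean of the clones.

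*Aass* was low in every clone. The lowest clone held 2.97 CPM (T41A clone E6), the median was 8.01 CPM and the highest was 19.6 CPM (S45C clone D3), and all 15 lay below the 58.5 and 85.3 CPM of untreated cells. The mean of untreated cells was 8.39 times that of the clones. Both libraries at 10 µM were above 13 of the 15 clones as well, and 2 clones, S45C clone D3 and T41N clone D3, lay above them.

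*Runx1t1* was also below both untreated libraries in all 15 clones, with a lowest value of 4.47 CPM (S37A clone A10), a median of 11.2 CPM and a highest value of 28.2 CPM (T41N clone D3). The untreated mean was 4.45 times that of the clones. Against the 3.27 and 6.78 CPM at 10 µM, 10 clones lay above both libraries and 0 below both. Of 7080 genes whose mean in untreated cells was 20 CPM or more, 888 (12.5%) had all clones below both untreated libraries. The untreated libraries had been used to choose the genes, and editing, cloning, genotype and the higher mitochondrial share of the clone libraries cannot be told apart in this comparison.

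The study grouped its clones by global expression into 3 classes, which followed the order of its reporter scores for the mutations. The strong class held the 9 clones of S37A, S37C, S37F, S37Y, T41A and T41I, the medium class the 3 clones of S45F and S45P, and the weak class the single clones of S45C, T41N and T41S. The classes were drawn from these same libraries, so tests between them are not independent of expression. The clone libraries took no part in choosing the 3 genes.

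*Runx1t1* was lowest in the strong class. The 3 weak clones held 28.2 CPM (T41N), 22.0 CPM (T41S) and 18.1 CPM (S45C), the 3 medium clones held 21.3 and 11 CPM (S45F clones C1 and D9) and 17.3 CPM (S45P), and the 9 strong clones ran from 4.47 to 17.8 CPM with a median of 6.59 CPM. Weak and strong clones did not overlap, although the highest strong clone, T41I clone A6, lay just under the lowest weak clone, and the medium clones overlapped both. Class means were 22.8 ± 5.12 CPM (SD, n = 3), 16.6 ± 5.21 CPM (n = 3) and 9.08 ± 5.02 CPM (n = 9). The strong class was lower than the weak class by −1.29 ± 0.36 (log2 ± SE, 2.45-fold, 95% interval −2.08 to −0.51, edgeR adjusted p = 0.00924). In an exact two-sided permutation test over the clones p was 0.00909, the smallest that 9 clones against 3 can give. This test, here and below, took each clone as a unit, although S37F, T41A, T41I and S45F had 2 clones each. Of 10452 genes tested, 3110 (29.8%) were called in this comparison and 1737 (16.6%) were lower, so a lower level in the strong class was common. Without the T41S clone the difference was −1.28 ± 0.48 and missed the threshold (adjusted p = 0.0724).

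*Aass* was also lower in the strong than in the weak class. The weak clones held 19.6 CPM (S45C), 18.2 CPM (T41N) and 10.7 CPM (T41S), the medium clones held 9.41 and 3.67 CPM (S45F clones C1 and D9) and 9.32 CPM (S45P), and the strong clones ran from 2.97 to 12.4 CPM with a median of 4.94 CPM. All medium clones lay below all weak clones, and 1 strong clone, T41I clone B9 (12.4 CPM), lay above the T41S clone. Class means were 16.2 ± 4.76, 7.47 ± 3.29 and 6.41 ± 3.10 CPM (SD, n = 3, 3 and 9). The strong class differed from the weak class by −1.21 ± 0.39 (2.31-fold, 95% interval −2.05 to −0.37, edgeR adjusted p = 0.0212, exact permutation p = 0.0182). This call was lost without the S45C clone (−1.01 ± 0.46, adjusted p = 0.104) and without the T41N clone (−1.10 ± 0.44, adjusted p = 0.0739).

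The medium class was not separated from its neighbors by the test. For *Runx1t1* it differed from the weak class by −0.45 ± 0.43 (95% interval −1.39 to 0.49, edgeR adjusted p = 0.554), and the strong class differed from it by −0.84 ± 0.36 (−1.63 to −0.06, adjusted p = 0.190). For *Aass* the same differences were −1.04 ± 0.49 (−2.09 to 0.02, adjusted p = 0.181) and −0.17 ± 0.42 (−1.08 to 0.73, adjusted p = 0.868). Of all genes, 11% were called between medium and weak clones and 4.51% between strong and medium clones. With 3 medium and 3 weak clones an exact permutation test cannot go below 0.1.

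*Fgfbp3* had too few counts in the clones to enter the fit. The weak clones held 0, 3.39 and 1.51 CPM (T41N, T41S and S45C), the medium clones 0.917 to 2.66 CPM and the strong clones 0.599 to 5.87 CPM, so the classes overlapped. An exact two-sided permutation test of log2 (CPM + 1) gave a difference of 0.34 between strong and weak clones (p = 0.518) and of 0.17 between strong and medium clones (p = 0.718). A difference between classes was not detectable at this depth.

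**Figure D3:**
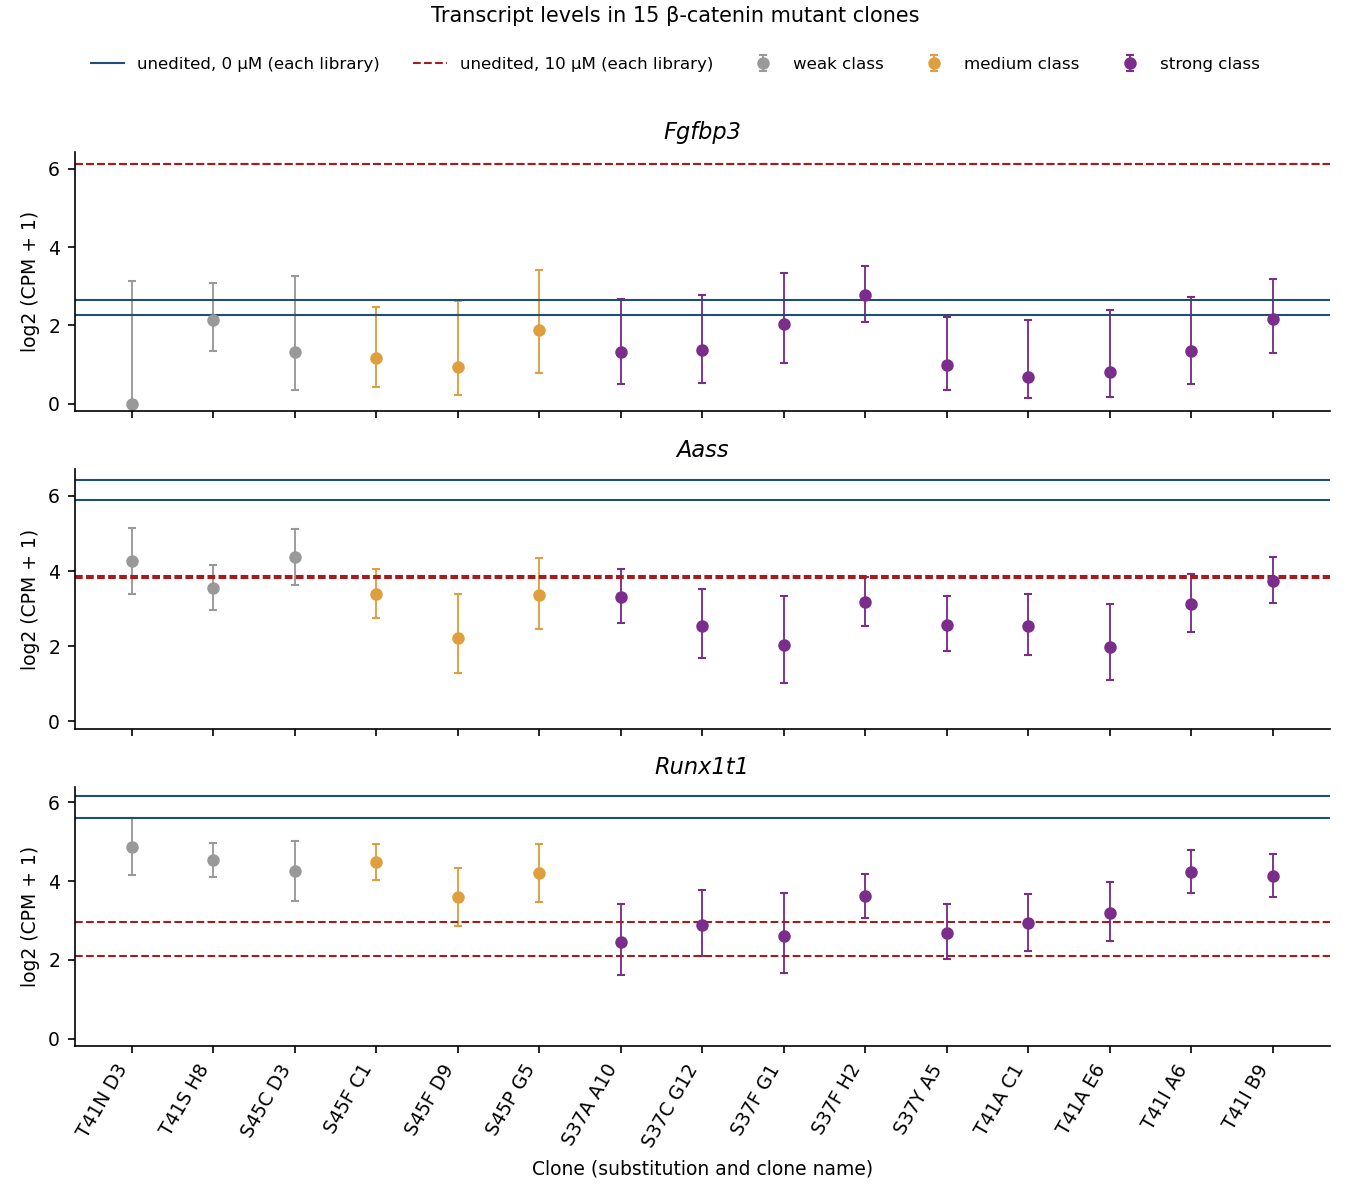
Levels as log2 (CPM + 1) (y axes) in each of the 15 clones (x axis, ordered by class), as points with Wilson 95% intervals colored by class; solid and dashed lines are the single libraries of unedited cells at 0 and 10 µM. All clones lie below the 10 µM lines for *Fgfbp3* and below the 0 µM lines for *Aass* and *Runx1t1*, and *Runx1t1* descends from weak (mean 22.8 CPM) to strong clones (9.08 CPM).

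Marker sums also differed among the clones, but not all of them followed the order of the classes. The neural marker sum was 102.9 to 159.9 CPM in the weak, 90.4 to 127.8 CPM in the medium and 17.9 to 90.8 CPM in the strong clones, with *Neurog2* at or near 0. The 5 ES cell markers summed to 1839 to 2401 CPM in the medium and to 1806 to 2576 CPM in the strong clones. In the weak class they summed to 1477 and 1515 CPM in the S45C and T41N clones, but to 833 CPM in the T41S clone. The 6 primitive endoderm markers summed to 20.2 to 48.0 CPM in the weak, 2.66 to 24.8 CPM in the medium and 7.76 to 254.8 CPM in the strong clones. Of the 5 tested, 1, *Gata6*, was called higher in the strong than in the weak clones (2.74 ± 0.96, edgeR adjusted p = 0.0348). *Gata4*, *Sox17* and *Sox7* differed in the same direction and were not called. *Dab2* differed in the other direction and was not called (−0.59 ± 0.52, edgeR adjusted p = 0.423), with means of 20.4 CPM in the weak and 13.8 CPM in the strong clones. *Pdgfra* was at 0 in 10 of the 25 libraries. The mesendoderm sum was 22.2 to 72.3 CPM in the weak, 16.3 to 29.3 CPM in the medium and 27.1 to 94.1 CPM in the strong clones. Their part in the differences of *Aass* and *Runx1t1* was not tested. Over genes of chromosome 6, which carries *Aass*, S45F clone D9 was shifted up by 0.45 (median log2 ratio to the middle clone, 320 genes), while its *Aass* level of 3.67 CPM was the lowest of its class. The shifts of chromosomes 4 and 19, which carry *Runx1t1* and *Fgfbp3*, stayed between −0.03 and 0.03 in all clones.

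Within the strong class, codon 37 and codon 41 clones were compared, and then strong and weak substitutions of the same codon 41. For *Runx1t1* the codon 37 clones held 4.47 CPM (S37A), 6.39 CPM (S37C), 5.11 and 11.2 CPM (S37F clones G1 and H2) and 5.43 CPM (S37Y), and the codon 41 strong clones held 6.59 and 8.18 CPM (T41A clones C1 and E6) and 16.5 and 17.8 CPM (T41I clones B9 and A6). T41I lay above all codon 37 clones, and T41A lay within their range. The difference was −0.85 ± 0.35 (95% interval −1.63 to −0.07, edgeR adjusted p = 0.524, exact permutation p = 0.0952), in a comparison where 4 of 11450 genes (0.0349%) were called and 8.38% had an unadjusted p under 0.05. The mesendoderm sum was 61 to 94.1 CPM in the codon 37 and 27.1 to 38.6 CPM in the codon 41 strong clones, which did not overlap, and the primitive endoderm sum was 45 to 254.8 CPM and 7.76 to 80.9 CPM. Their part in the *Runx1t1* values was not tested.

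At codon 41, the T41A and T41I clones differed from the T41N and T41S clones by −0.99 ± 0.40 for *Runx1t1* (−1.88 to −0.10, edgeR adjusted p = 0.0801), where 22.7% of genes were called. Without T41I clone A6 the difference was −1.20 ± 0.41 and passed (adjusted p = 0.0369). For *Aass*, codon 37 and codon 41 strong clones differed by −0.20 ± 0.41 (−1.11 to 0.71, adjusted p = 0.938), and strong and weak codon 41 clones by −0.90 ± 0.51 (−2.03 to 0.22, adjusted p = 0.215). With 4 clones against 2 an exact permutation test cannot go below 0.133.

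Ordered by mutation, *Runx1t1* went from T41N through T41S, S45C, S45P, T41I and S45F to S37F, T41A, S37C, S37Y and S37A. Only the gap between S45F and S37F, 0.92 on the log2 (CPM + 1) scale, exceeded the spread of 2 clones with the same mutation (SD 0.49, 4 pairs). The clones on its 2 sides overlapped, since S37F clone H2 lay above S45F clone D9. Their Wilson intervals were 7.33 to 17.1 CPM and 6.3 to 19.2 CPM, so this gap does not separate S45F from S37F. In this order T41I, a strong mutation, had a level next to S45P and S45F of the medium class. For *Aass* the order was S45C, T41N, T41S, T41I, S45P, S37A, S45F, S37F, S37Y, S37C and T41A. Only the gap between T41N and T41S (0.71) exceeded the spread between clones of a mutation (SD 0.64). T41N and T41S had 1 clone each, with 9 and 19 counts. Their Wilson intervals overlapped (9.55 to 34.5 and 6.87 to 16.8 CPM), so this gap does not separate them. For *Fgfbp3* no order is given, since the 0 counts of the T41N clone allow up to 6.05 CPM, more than the value of any clone.

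The genes whose levels followed the members most closely were found among those averaging 20 CPM or more, by Pearson's correlation of log2 (CPM + 1). Over the 15 clones (7002 genes) these included *Cxxc1* (r = 0.855) and *Sesn3* (0.851) for *Aass*. For *Runx1t1* they were *Dip2b* (0.896), *Utrn* (0.895) and *Tcfl5* (0.883). Spearman's correlation kept 1 of the 3 for *Runx1t1*. No likeness is read from the sparse counts of *Fgfbp3* in the clones, where *Trim3*, *Rsrc2* and *Ntmt1* came first. Over the 10 dose libraries (7087 genes) they were *Nkd1* (0.970), *Slc38a4* (0.962) and *Sec11a* (0.961) for *Fgfbp3*, *Rangap1* (0.971), *Pcsk1n* (0.962) and *Tnip1* (0.957) for *Aass*, and *Mov10* (0.975), *Mest* (0.971) and *Kif2c* (0.971) for *Runx1t1*. Over the dose libraries Spearman's correlation kept 1 of the 3 for *Fgfbp3* and none for *Aass* or *Runx1t1*, so these names depend on the measure. The points share the dose or class order, so these values only rank genes.

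FGFs signal through receptor tyrosine kinases, and *Fgf4* is the main FGF gene of ES cells. Of 22 other genes of FGF ligands, receptors and binding proteins, 7 could be tested for the dose slope, and 2 rose and 3 fell, beside 5.89% rising and 6.63% falling over all genes. *Fgfbp1*, which encodes a related FGF-binding protein, rose by 1.47 ± 0.39 (edgeR adjusted p = 0.0112), from 5.98 and 9.57 CPM at 0 µM to 26.1 and 24.1 CPM at 10 µM. *Fgfrl1*, which encodes a receptor without a kinase domain, rose by 1.67 ± 0.34 (adjusted p = 0.00106), from 11.4 and 6.38 CPM to 32.7 and 28.6 CPM. Both rises were smaller than that of *Fgfbp3*, which was chosen for its steep slope.

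The 3 falling genes encode ligands. *Fgf4* went from 327 and 333 CPM at 0 µM to 124 and 138 CPM at 10 µM (−1.31 ± 0.15, adjusted p = 2.52e-07). *Fgf15* went from 30.4 and 12.8 CPM to 3.27 and 3.77 CPM (−2.44 ± 0.44, adjusted p = 0.000229), and *Fgf17* changed by −1.15 ± 0.37 (adjusted p = 0.0362) although its libraries at 0 and 10 µM overlapped. The median of the 7 slopes was 0.32, beside 0.01 over all genes.

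Between strong and weak clones, 8 genes of this list were tested, and 1 was higher and 5 were lower in the strong clones, beside 13.1% higher and 16.6% lower over all genes. *Fgf4* was higher (0.88 ± 0.18, edgeR adjusted p = 0.000699), with 57.1 to 122 CPM in the weak and 130 to 192 CPM in the strong clones, which did not overlap. *Fgf17* (−1.33 ± 0.25), *Fgf18* (−2.12 ± 0.46), *Fgfr1* (−1.0 ± 0.18), *Fgfr2* (−1.33 ± 0.38) and *Fgfrl1* (−1.04 ± 0.38) were lower. *Fgfbp1* had 58.5 to 73.9 CPM in the weak and 12.3 to 58.6 CPM in the strong clones and did not pass (−0.58 ± 0.30, adjusted p = 0.164), so unlike *Fgfbp3* it was well above the floor in the clones. The median of the list was −1.09, beside 0.01 over all genes.

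Of 14 other genes of lysine breakdown 11 were tested for the dose slope, and 1 rose and 1 fell. Over all genes 12.5% were called, so this count is near the background. *Pipox*, which encodes the peroxisomal pipecolic acid oxidase, fell from 62.0 and 51.0 CPM at 0 µM to 22.9 and 25.6 CPM at 10 µM (−1.25 ± 0.22, edgeR adjusted p = 0.000143). *Crym*, which encodes a ketimine reductase, rose from 12 and 5.32 CPM to 22.9 and 21.1 CPM (1.44 ± 0.35, adjusted p = 0.00554). *Aldh7a1*, which acts after *Aass* in the saccharopine route, did not pass (−0.12 ± 0.16, adjusted p = 0.710), with 107 and 88.2 CPM at 0 µM and 105 and 94.9 CPM at 10 µM. The list's median was −0.12, beside 0.01 over all genes.

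In the strong against the weak clones, 3 of 11 genes of lysine breakdown were higher and 2 lower, beside 13.1% higher and 16.6% lower over all genes. *Echs1* (0.47 ± 0.15), *Hadh* (0.47 ± 0.12) and *Acat1* (0.89 ± 0.24), whose enzymes act late in the route and also in fatty acid or ketone metabolism, were higher. *Aldh7a1* was lower (−0.40 ± 0.12, edgeR adjusted p = 0.0140), with 104 to 113 CPM in the weak and 74.3 to 93.8 CPM in the strong clones, and so was *Dld* (−0.34 ± 0.12). *Aldh7a1* thus differed in the direction of *Aass* by a smaller amount. The median of the list was 0.30.

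ETO proteins recruit co-repressors and histone deacetylases to transcription factors. Of 21 other genes of the family and its partners, 14 were tested for the dose slope, and 1 rose and 1 fell, a share near the 12.5% called over all genes. *Runx1*, the transcription factor gene that is fused to *RUNX1T1* in a leukemia translocation, rose from 3.80 and 4.25 CPM at 0 µM to 26.1 and 13.6 CPM at 10 µM (1.60 ± 0.43, edgeR adjusted p = 0.0116), against the direction of *Runx1t1*. *Hdac2*, a histone deacetylase gene, fell from 156 and 133 CPM to 104.5 and 104.7 CPM (−0.41 ± 0.14, adjusted p = 0.0409). *Cbfa2t2*, the family member with counts enough for the test, did not pass (−0.17 ± 0.16, adjusted p = 0.552). The median of the list was 0.01, the same as over all genes.

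In the clones, 15 of these genes were tested between strong and weak classes, and 1 was higher and 3 were lower, a share near the 29.8% called over all genes. *Cbfa2t2* was higher in the strong clones (0.71 ± 0.18, edgeR adjusted p = 0.00443). *Runx1* was lower (−1.31 ± 0.38, adjusted p = 0.0121), with 7.54 to 28.8 CPM in the weak and 3.74 to 15.3 CPM in the strong clones, which overlapped, and so were *Cbfb* (−0.72 ± 0.20), which encodes the partner subunit of RUNX factors, and *Tcf12* (−0.87 ± 0.24), which encodes an E protein. The list's median was 0.09.

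**Figure D4:**
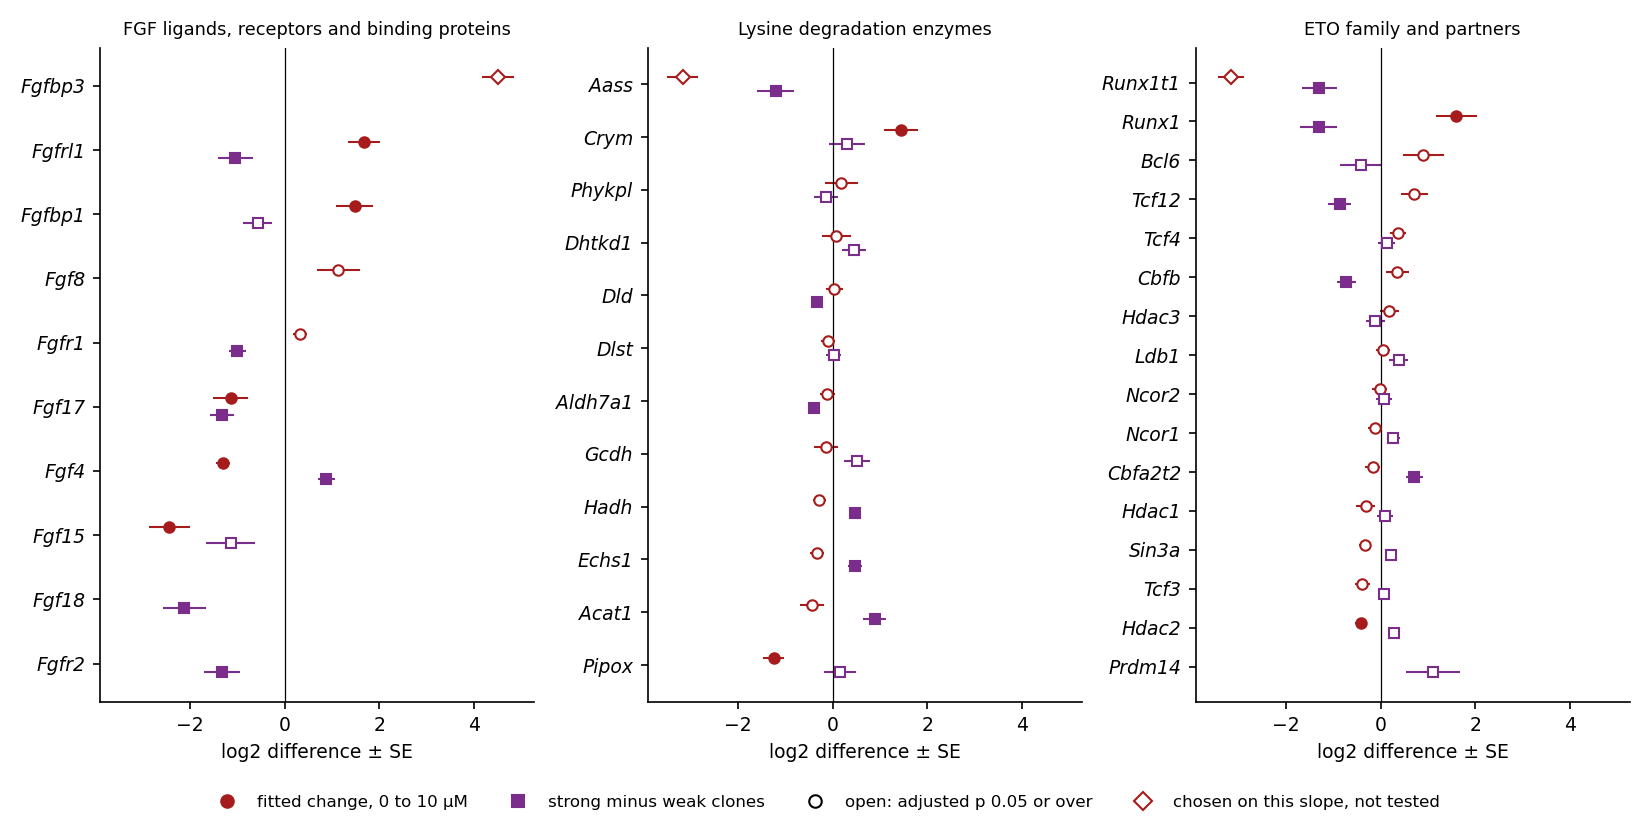
Log2 differences ± SE (x axes) for each tested gene of the 3 lists, with circles for the fitted change from 0 to 10 µM and squares for strong minus weak clones; filled symbols had an adjusted p under 0.05, and diamonds mark the members, which were chosen on the dose slope. *Fgfbp3* (4.50), *Aass* (−3.17) and *Runx1t1* (−3.16) were chosen for steep slopes, so their place beyond the other genes of their lists along the dose follows from that choice.

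Genes near the members on the chromosome were looked at as well. Within 500 kb of *Fgfbp3*, 8 of 15 genes were tested for the dose slope, and 2 fell by the edgeR test (6.63% over all genes), *Kif11* (−0.78 ± 0.17, adjusted p = 0.00244) and *Ide* (−0.73 ± 0.15, adjusted p = 0.00125). The nearest, *Btaf1*, 6.46 kb away, changed by 0.30 ± 0.22 (adjusted p = 0.416). Between strong and weak clones 6 of these genes were tested and 2 were lower in the strong clones (16.6% over all genes), *Tnks2* (−0.44 ± 0.13, adjusted p = 0.0142) and *Pcgf5* (−0.86 ± 0.26, adjusted p = 0.0154). None of the 14 genes near *Aass* or the 10 near *Runx1t1* had enough counts for the test.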

How the data were processed

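The authors deposited 1 table of UMI counts per gene (48440 genes, 24146 of them without a count), with no normalization. Per the labels and the methods, reads were trimmed, filtered for ribosomal RNA with SortMeRNA, aligned to mm10 with STAR and deduplicated by UMI. Duplicates were then also filtered with Picard MarkDuplicates, and reads were counted with featureCounts 2.0.1. The annotation release and strand setting are not given in the sources used here. Gene names and coordinates came from GENCODE M21 (GRCm38; 48058 IDs found, 40606 with the same version), and upstream sequences from RefSeq (GRCm38.p6).

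Counts were fitted across all genes with edgeR 4.0.16 (R 4.3.3) by quasi-likelihood F-tests after TMM scaling and filterByExpr (minimum count 10), with Benjamini-Hochberg adjustment and a threshold of 0.05. One fit used the dose in µM, one the 5 doses as groups, one the 3 classes of clones and one codon by class. The fit with the 5 doses as groups was made without filterByExpr, on every gene with a count. Its values were then kept for the genes of the fit on the dose in µM. The standard error is the log2 difference divided by the square root of F. Single genes were tested over clones by exact two-sided permutation (scipy 1.17.1). Wilson intervals and the floor of 3 counts cover counting error only. Nothing states that libraries of a dose came from separate cultures, so their spread may be technical. Libraries of the same dose differed by more than counting noise (chi-square per degree of freedom 1.33 to 2.04). Clones of the same mutation did so as well (1.75 to 3.66). On simulated counts with 4-fold changes, 92.5% of 200 planted genes were recovered for the dose and 95% for strong against weak clones. The shares were 90.5% for codon 37 against 41 and 79% within codon 41. The clone differences of *Aass* and *Runx1t1* were smaller (at most 2.45-fold), so these shares do not say how often such differences are found.

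The members and gene lists were chosen with earlier results of these data known. Named genes were the members, genes of the lists that passed a test (with a few close relatives of a member that did not pass, *Fgfbp1* in the clones, *Aldh7a1* and *Cbfa2t2* along the dose, chosen after their values were seen), the genes next to each member in dose slope, the 3 most similar genes, and tested genes within 500 kb. Some items that this rule names are not reported here. The shape comparison used called genes averaging 20 CPM or more that changed by 2-fold or more at 10 µM. Alternatives were RLE size factors, DESeq2 1.42.0, no filter, thinned counts, counts summed per mutation, log2 (dose + 1), subsets of doses or libraries, the mitochondrial share as a term, a replicate block and leaving out each library.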

Additional observations from a re-analysis of the deposited data

Results flagged for a closer look

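*Runx1t1* stood apart in 1 of the 5 codon 37 clones. S37F clone H2 held 11.2 CPM, and the gap to the next clone, S37C clone G12 at 6.39 CPM, was larger than the limit of Dixon's test relative to the range of the group. The other S37F clone, G1, held 5.11 CPM. Of 9 groups of 4 to 10 libraries examined for the 3 genes, this was the 1 that stood apart, and chance flags about 1 in 20 groups.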

How the results depend on the processing

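The dose slopes of the 3 members, and the called strong minus weak differences of *Aass* and *Runx1t1*, kept their direction under each alternative that could be fitted; the other named genes were not refitted. Apart from leaving out 1 library, 89 values stayed within their limits and 21 moved. On log2 (dose + 1) the change from 0 to 10 µM was 5.42 for *Fgfbp3*, −2.79 for *Aass* and −2.57 for *Runx1t1*. Without 0 µM it was −1.91 for *Aass* and −2.80 for *Runx1t1* (121 genes called in all), without 10 µM 5.07 for *Fgfbp3* and −3.82 for *Aass*, and in DESeq2 −2.79 for *Aass*. Counts thinned to the smallest library gave 269 genes for the dose, 1326 for strong against weak, 396 for medium against weak, 143 for strong against medium, 2 for codon 37 against 41 and 985 within codon 41, with fewer genes tested, and *Aass* and *Runx1t1* then fell below the filter. Strong against medium clones gave 240 genes with counts summed per mutation and 739 without the filter, and codon 37 against 41 gave 15 in DESeq2 and 104 without the filter. Where these moved, the cause was not tested.

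Leaving out 1 library at a time, the dose slope was −3.66 to −2.52 for *Aass* (least steep without 0 µM replicate 1) and −3.33 to −2.75 for *Runx1t1*. The strong minus weak difference was −1.51 to −1.01 for *Aass*, with its call lost without S45C or T41N, and −1.46 to −1.16 for *Runx1t1*, lost without T41S. The codon 41 difference of *Runx1t1* was −1.20 to −0.73 and was called without T41I clone A6. Genes called ran from 527 (without 0 µM replicate 1) to 1325 for the dose, 1653 (without T41S) to 3264 for strong against weak, 276 (without T41S) to 1433 for medium against weak, 106 (without S45F clone D9) to 811 (without T41I clone A6) for strong against medium, 1 to 10 for codon 37 against 41 and 451 (without T41S) to 2702 within codon 41. The count also moved by over 1.5 times without 0 µM replicate 2 for the dose, without either S45F clone for medium against weak, in 7 of 15 cases for strong against medium (S37A, S37C, both S45F, S45P, T41A clone C1 and T41I clone A6) and in 9 of 15 for codon 37 against 41.

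The replicate numbers of the dose libraries did not pair them: deviations of same-numbered libraries correlated by −0.23 to 0.19, over 0.1 in 3 of 10 pairs of doses. With a replicate block the slopes were 4.58, −3.01 and −3.06 for *Fgfbp3*, *Aass* and *Runx1t1*, with 1140 genes called. Depth limited *Fgfbp3* in the clones and *Runx1t1* at 10 µM most.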
